A study of Mus musculus with 9 samples.

Results

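Mouse macrophages pretreated with cpdA, a compound the study's title describes as selective for the receptor Gpr120, were set directly against macrophages pretreated with the fatty acid DHA, with LPS added to both. The comparison takes 6 of the 9 RNA-seq libraries of the series, 3 labelled cpdA with LPS and 3 labelled DHA with LPS. It covers the 13895 of 15343 listed genes with a normalized read count of 10 or more in at least 3 of the 9 libraries. All cells are primary intraperitoneal macrophages labelled WT, of a strain written CF7B1/6. DHA was given at 100 µM and cpdA at 10 µM, each for 1 h, and LPS followed at 100 ng/ml for 6 h. The remaining 3 libraries had LPS alone and are quoted beside the results. The doses of the 2 pretreatments differ 10-fold on the molar scale, so what follows compares these doses and not the compounds at a matched dose. The labels do not say whether replicates came from separate animals or cultures, so p-values measure only the spread between libraries, which may be technical.

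DHA is a long-chain omega-3 fatty acid. Gpr120, encoded by Ffar4, is a G protein-coupled receptor for such fatty acids that couples to Gq and recruits beta-arrestin 2, and beta-arrestin 2 can bind the adaptor TAB1 away from the kinase complex that TLR4 uses. LPS acts on TLR4, which drives NF-kB target genes such as Il6, Il1b and Tnf through MYD88, and interferon genes through TRIF and IRF3. A fatty acid can also enter the cell, be oxidised in mitochondria, be stored in lipid droplets and bind nuclear receptors of the PPAR family. Setting the agonist against the fatty acid asks which transcripts differ between them when both precede the same LPS stimulus.

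The libraries held 13797079 to 37572822 reads on listed genes, and DHA 1 was the shallowest. Macrophage genes were abundant in all 6 compared libraries: Emr1, which encodes F4/80, lay between 32702.9 and 43350.9 normalized counts, and the resident peritoneal factor Gata6 between 261.6 and 405.6. Gata6 was highest in cpdA 3, and so was the resident marker Cxcl13, at 12233.5 against 864.9 to 1151.2. Some other resident markers were low there. Cd5l read 438.2 in cpdA 3 against 1917 to 2175.2 in the other compared libraries, and Ltbp1 31.7 against 128 to 156. With LPS alone Cd5l read 2071.6, 1853 and 372.4, so it was low in LPS 3 too. Of 13 resident markers, cpdA 3 was the lowest of the 6 for 7 and the highest for 2, against 35.1% and 30.2% of all genes. The labels' growth protocol describes neural stem cells, and of 5 neural genes looked for, Nes (117.7 to 233.8) and Fabp7 (32.6 to 152.5) had values in the 6 libraries. Sox2, Pax6 and Olig2 had no entry under those symbols among the listed genes. In bulk RNA, fewer cells of a type and less RNA per cell cannot be told apart. Ffar4 itself had 0 reads in DHA 1, DHA 2, DHA 3, cpdA 1, cpdA 2, LPS 1 and LPS 2, and had 3 reads in cpdA 3 and 2 in LPS 3. Transcripts of the receptor were thus at or under a floor of 3 reads in every library, which covers counting error only. The 2 partners named above were measured: Arrb2, which encodes beta-arrestin 2, read 1391.0, 1485.1 and 1388.9 with DHA and 1520.4, 1361.9 and 1765.6 with cpdA, a difference (cpdA minus DHA on the log2 scale) of 0.12 with a 95% interval of -0.13 to 0.36, and 0.02 without cpdA 3. Tab1 read 323.2, 349.6 and 307.2 with DHA and 367.1, 329.6 and 367.6 with cpdA, a difference of 0.12 with an interval of -0.11 to 0.35. The groups overlapped for both genes.

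Before any gene was compared, each pair of libraries was scored by the median squared difference over genes divided by the sampling noise at equal depth, so that 1 stands for sampling noise alone. The smallest score of all 36 pairs joined libraries with different labels: DHA 1 and cpdA 1 differed by 1.26. Within the DHA group the scores were 2.92 for DHA 2 and DHA 3, 3.23 for DHA 1 and DHA 3, and 5.15 for DHA 1 and DHA 2. Within the cpdA group they were 2.51 for cpdA 1 and cpdA 2, 12.1 for cpdA 1 and cpdA 3, and 11.8 for cpdA 2 and cpdA 3. Library cpdA 3 therefore stood farther from its own group than any DHA library stood from cpdA 1 or cpdA 2, and the first principal component, with 40.5% of the variance, set cpdA 3 apart, as the second, with 28.8%, did for LPS 3. The median standard deviation of a gene on the log2 scale was 0.150 among the DHA libraries, 0.230 among the cpdA libraries and 0.0948 between cpdA 1 and cpdA 2 alone. Many of the results are therefore given without cpdA 3 as well.

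**Figure D1:**
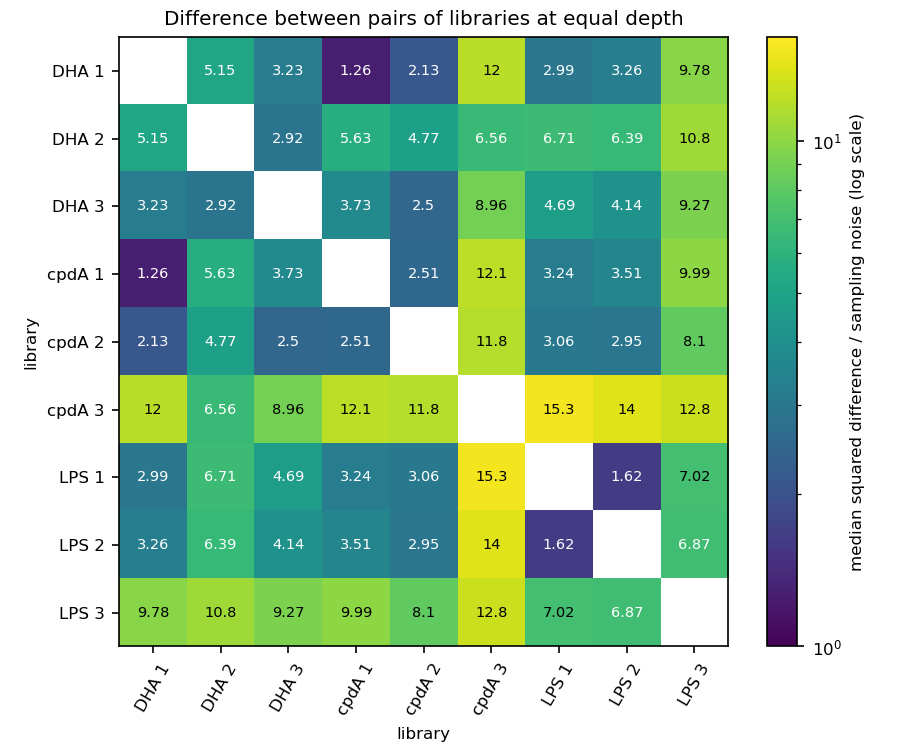
Difference between each pair of the 9 libraries: both axes list the libraries and the colour gives the median squared difference over genes divided by sampling noise at equal depth, on a log scale. The pair DHA 1 and cpdA 1 has the lowest value, 1.26, and the row of cpdA 3 holds values from 6.56 to 15.3.

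No gene passed the test between cpdA and DHA. limma on log2(normalized count + 1) called 0 of 13895 genes at an adjusted p under 0.05 (0% called), and the smallest adjusted p was 1.00. At an unadjusted p under 0.05 there were 142 genes (1.02%). On the reads recovered from the table, edgeR's quasi-likelihood test also called 0 genes (157 at an unadjusted p under 0.05) and DESeq2 called 0 (145 unadjusted). The difference was positive, that is higher with cpdA, for 6314 genes (45.4%) and negative for 7581 (54.6%), with a median of -0.02. All 3 cpdA libraries lay above all 3 DHA libraries for 423 genes (3.04%) and below them for 362 (2.61%). Leaving out any single library of the 9 left 0 calls by limma, with 86 to 372 genes at an unadjusted p under 0.05. The count tests were repeated without cpdA 3 and without DHA 1: edgeR called 0 genes both times, and DESeq2 called 0 without cpdA 3 and 11 without DHA 1, all lower with cpdA (0.0792%).

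A p that misses the threshold does not show that cpdA and DHA act alike, so the 95% interval of each difference was read instead. For 11110 genes (80%) the whole interval lay within 2-fold in either direction, and the median interval reached 0.40 to each side on the log2 scale. Without cpdA 2 the number was 10172, and without cpdA 3 it was 11295. The lists with every member inside that range were the ER chaperones (22 of 22), the integrated stress response (27 of 27), the respiratory chain and TCA cycle (23 of 23), lysosome and autophagy (24 of 24) and the proteasome (17 of 17). The proinflammatory cytokines were the opposite case, with 4 of 21 inside it and a median reach of 1.402. Differences of more than 2-fold in many of the cytokines were thus not detectable with these libraries.

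**Figure D2:**
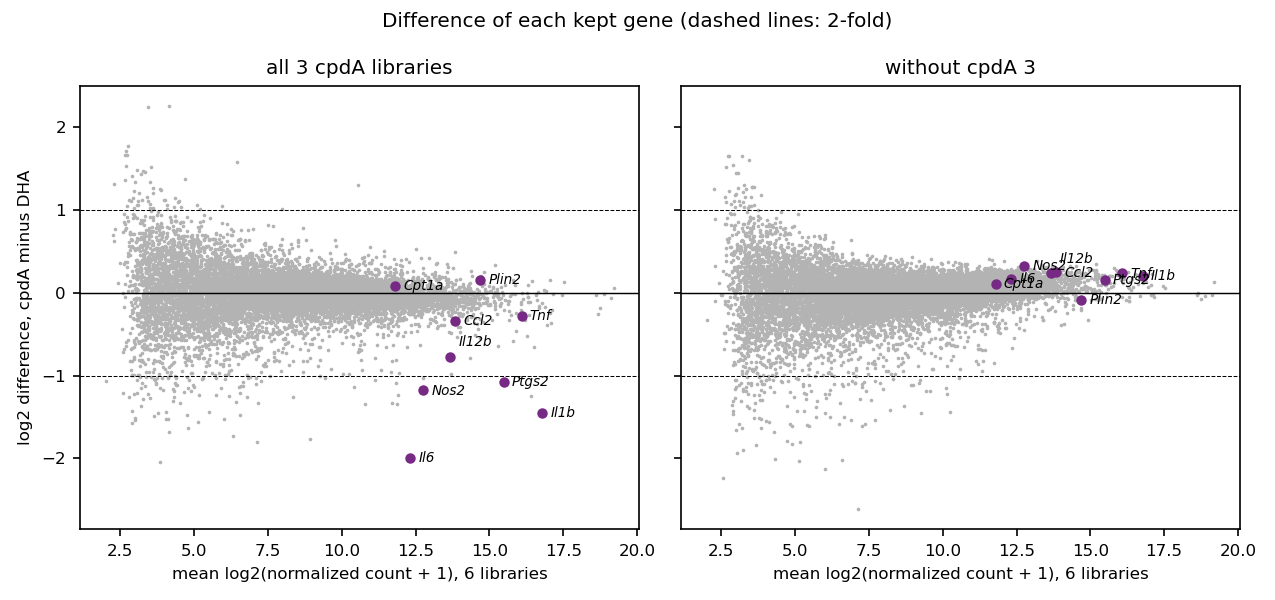
Log2 difference, cpdA minus DHA, of each of the 13895 genes (grey points) against its mean log2(normalized count + 1) over the 6 libraries, with all cpdA libraries on the left and without cpdA 3 on the right; dashed lines mark 2-fold. Il6, Il1b, Nos2 and Ptgs2 lie below -1 on the left and between 0.16 and 0.32 on the right.

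The secreted cytokines, the mediators that NF-kB induces after LPS, had the widest intervals among the lists, and 1 library set their direction. Il6, an inducer of the acute-phase response, read 10541.8, 8665.7 and 11562.8 with DHA and 10417.7, 12593.4 and 125.9 with cpdA. Libraries cpdA 1 and cpdA 2 fell within or above the DHA range, and cpdA 3 was far below it. The difference of Il6 was -1.996 (interval -5.38 to 1.39; limma, adjusted p = 1.00), and without cpdA 3 it was 0.17. Il1b, which encodes the precursor of interleukin-1 beta, read 219000, 149428 and 194820 with DHA and 213646, 212644 and 6839.8 with cpdA. Its difference of -1.45 became 0.20 without cpdA 3. Tnf, the early inflammatory cytokine, read 97130.3, 60862.6 and 76411.3 with DHA and 96546.2, 84474.1 and 30769.8 with cpdA, and its difference of -0.28 became 0.24. Il12b, which encodes the p40 chain shared by IL-12 and IL-23, read 19164.3, 14887.8 and 17660.3 with DHA and 18833.5, 21776.7 and 2463.7 with cpdA. The shape was the same in all 4: DHA 2 was the lowest of the DHA libraries, DHA 1 was close to cpdA 1, and cpdA 3 was below the rest.

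The cytokines with the smallest p-values besides Il6 were Ifnb1, Il23a and Il1a. Il1a, an alarm cytokine related to Il1b, read 149369, 107467 and 147039 with DHA and 146907, 152785 and 7939.9 with cpdA. Il23a, the other chain of IL-23, read 1072.2, 725.1 and 879.2 with DHA and 1054.9, 1015.1 and 15.4 with cpdA. Both had the shape of Il6. Ifnb1, the interferon that feeds the antiviral branch, was scarce at 11.1, 9.0 and 8.9 with DHA and 10.6, 6.6 and 0 with cpdA, and its difference of -1.25 was -0.18 without cpdA 3, so its sign did not turn. None of the 21 cytokines passed the test in either direction. Their median difference was -0.58 with 4 of 21 positive, beside -0.02 and 45.4% over all genes, and without cpdA 3 it was 0.21 with 20 of 21 positive, beside 54.3% of all genes. Library cpdA 3 was the lowest of the 6 for 19 of the 21, against 35.1% of all genes, and DHA 2 was the lowest of the other 5 for 19 of the 21, against 32.4% of all genes. Il10, the anti-inflammatory cytokine, was scarce at 6.7, 12.4 and 20 with DHA and 13.8, 19.7 and 7.2 with cpdA, and its difference of 0.07 (interval -1.33 to 1.47) was -0.02 by edgeR. Il1rn, which encodes the secreted antagonist of the interleukin-1 receptor, read 22581.7, 17878.2 and 20993.3 with DHA and 22143.2, 23460.1 and 17489.6 with cpdA. The groups overlapped for both, and LPS alone gave higher readings than all 6 libraries, 25.0 or more for Il10 and 37693.5 or more for Il1rn.

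**Figure D3:**
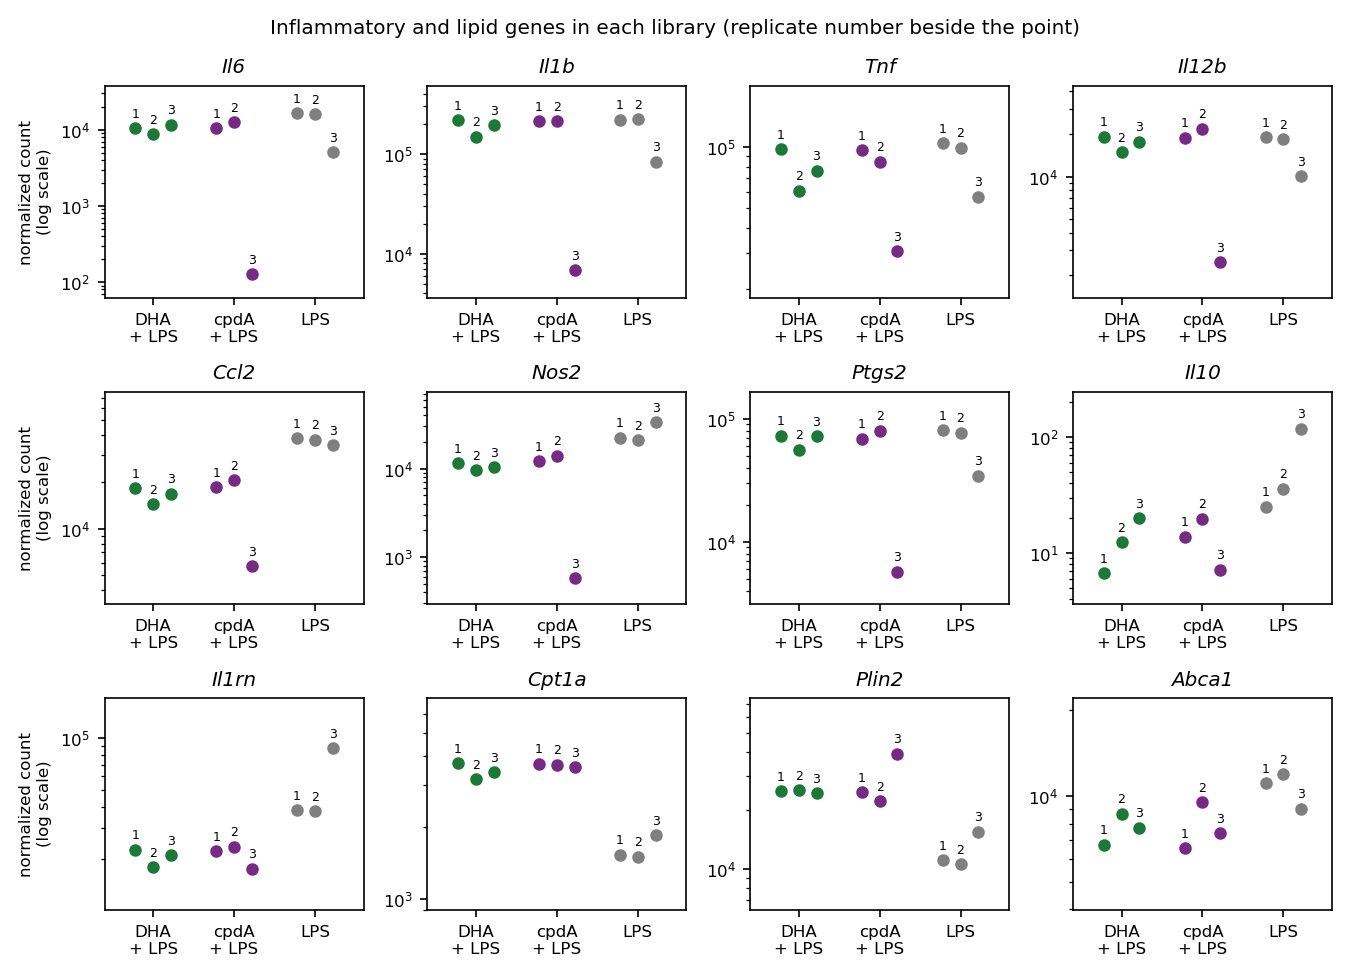
Normalized count (log scale) of 12 inflammatory and lipid genes in each library with DHA and LPS (green), cpdA and LPS (purple) or LPS alone (grey), 1 point per library with its replicate number. Library cpdA 3 lies far below the other cpdA libraries for Il6, Il1b, Il12b, Nos2 and Ptgs2, and the 6 pretreated libraries lie close together for Cpt1a.

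The chemokines, which draw leukocytes to a site of infection, followed the same order of libraries with a few exceptions. Ccl2, the monocyte attractant, read 18241.5, 14346.5 and 16774.4 with DHA and 18401.8, 20555.8 and 5727.0 with cpdA, beside 38432.9, 37413.4 and 34516.0 with LPS alone. Both pretreatments were thus below LPS alone in every library, and between them the difference was -0.34 with cpdA 3 and 0.25 without it. Ccl3, an attractant of macrophages and T cells, read 139594, 92080.4 and 125182 with DHA and 141959, 132368 and 21968.9 with cpdA. Ccl22, an attractant of regulatory T cells, read 6050.0, 4690.8 and 5400.8 with DHA and 5832.0, 6618.5 and 414.7 with cpdA. Both had their lowest reading in cpdA 3, and their differences of -0.65 and -1.09 became 0.23 and 0.22 without it. None of the 12 CC chemokines passed the test, with a median of -0.44 and 0 of 12 positive, and a median of 0.22 with 10 of 12 positive without cpdA 3.

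Among the CXC chemokines, Cxcl3, a neutrophil attractant, read 22508.1, 15204.7 and 18735.3 with DHA and 21896.6, 22003.0 and 1726.7 with cpdA. Cxcl13, the B cell attractant of peritoneal macrophages, went the other way in cpdA 3, with 960.8, 864.9 and 1040.5 for DHA and 918.4, 1151.2 and 12233.5 for cpdA, a difference of 1.30 and 0.11 without cpdA 3. With LPS alone Cxcl13 read 1430.3, 1233 and 12479.1, so LPS 3 was high as well. Cxcl14 lay below all DHA libraries in all cpdA libraries, at 127.1, 177.0 and 133.5 with DHA and 113.2, 111.5 and 50.7 with cpdA, a difference of -0.74 with an interval of -1.63 to 0.16, and -0.36 without cpdA 3. None of the 11 CXC chemokines passed the test, and the list's median was -0.09 with cpdA 3 and 0.23 without it.

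Upstream of these genes, the receptor complex and adaptors of TLR4 signalling had narrow differences between the pretreatments. Of 26 genes 12 were positive (18 without cpdA 3), the median was -0.00, 25 had an interval within 2-fold and none passed the test. Ly96, which encodes the LPS-binding partner MD-2 of TLR4, read 662.1, 586.4 and 651.0 with DHA and 619.0, 619.1 and 345.9 with cpdA, a difference of -0.31 and -0.03 without cpdA 3. Traf3, an adaptor of the interferon arm, read 1408.8, 1277.6 and 1317.6 with DHA and 1407.2, 1430.8 and 1853.5 with cpdA, a difference of 0.22 with an interval of -0.04 to 0.47, and 0.09 without cpdA 3. Ikbke, a kinase that activates IRF3, had the same difference, with an interval of -0.07 to 0.52. The groups overlapped for all 3.

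The subunits and inhibitors of NF-kB had the order of libraries seen for the cytokines. Nfkb2, which encodes the p100 precursor, read 29358.4, 18932.5 and 22957.6 with DHA and 29850.1, 27694.2 and 8358.2 with cpdA, a difference of -0.29 and 0.30 without cpdA 3. Rel, the subunit c-Rel, read 1402.2, 1088.1 and 1378.9 with DHA and 1442.1, 1504.6 and 650.1 with cpdA. Bcl3, an atypical inhibitor that also acts in the nucleus, read 1348.7, 1030.6 and 991.6 with DHA and 1366.0, 1302.1 and 1107.4 with cpdA, a difference of 0.17. In Bcl3 cpdA 3 lay inside the DHA range. None of the 17 genes passed the test. Their median was -0.06 with 5 of 17 positive, and 0.23 with 17 of 17 positive without cpdA 3. DHA 2 was the lowest of the libraries other than cpdA 3 for 16 of the 17.

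Effector enzymes gave the same picture. Nos2, the inducible nitric oxide synthase, read 11518.2, 9528.3 and 10390.9 with DHA and 12140.2, 14046.4 and 575.9 with cpdA. Ptgs2, the inducible cyclooxygenase, read 72609.2, 55755.6 and 72097.8 with DHA and 68884.2, 79866.9 and 5681.7 with cpdA. Their differences were -1.18 and -1.07 with all libraries and 0.32 and 0.16 without cpdA 3. Slc7a2, a transporter of the arginine that Nos2 consumes, read 54744.5, 43132.1 and 51341.5 with DHA and 53851.2, 61247.7 and 9662.0 with cpdA. Arg1, the arginase that competes with Nos2 for substrate, was the effector gene nearest to the threshold: 122.6, 191.7 and 164.7 with DHA against 139.7, 100.9 and 110.5 with cpdA, a difference of -0.43 (interval -0.87 to 0.00; limma, adjusted p = 1.00) and -0.40 without cpdA 3. The groups overlapped through DHA 1 and cpdA 1. None of the 14 effector genes passed the test, and 1 of 14 was positive with a median of -0.16. Without cpdA 3 it was 13 of 14 with a median of 0.23.

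The interferon branch was described over 39 interferon-stimulated antiviral genes and 16 interferon-inducible GTPases. Such genes are switched on through the interferon-stimulated response element, searched here as GAAA, any 2 bases and GAAA on one strand, or TTTC, any 2 bases and TTTC on the other. In the RefSeq promoter windows (build GRCm38.p6, 250 bases before to 50 after each gene's start), 15 of the 28 antiviral genes with an entry (53.6%) held a match, against 1079 of 27025 genes (3.99%). The stretch of 170 bases before the start is shown, 5′ to 3′ on the gene's strand, for the 2 most abundant of those 15, since both carry the list's readings below. Capitals mark the matches, and a match is a description of the letters only. Rsad2 lies on the minus strand at chr12:26456453-26456622, with its match 120 bases before the start. Ifit1 lies on the plus strand at chr19:34640719-34640888, with matches 104 and 85 bases before the start.
Rsad2: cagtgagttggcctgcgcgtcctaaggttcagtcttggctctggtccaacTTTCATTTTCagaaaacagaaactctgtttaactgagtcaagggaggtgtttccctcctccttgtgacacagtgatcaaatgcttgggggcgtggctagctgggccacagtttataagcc
Ifit1: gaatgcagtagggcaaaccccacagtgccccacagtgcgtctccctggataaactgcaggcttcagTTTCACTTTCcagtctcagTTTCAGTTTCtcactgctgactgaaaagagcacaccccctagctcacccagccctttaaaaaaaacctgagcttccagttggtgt

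Rsad2, which encodes the antiviral protein viperin, read 180107, 131808 and 168540 with DHA and 178420, 194397 and 53797.2 with cpdA. Ifit1, which binds foreign RNA caps, read 49204.9, 33982.7 and 47892.7 with DHA and 49147.1, 48696.9 and 19561.3 with cpdA. For both genes the order was the one seen for the cytokines, with cpdA 3 lowest and DHA 2 next. Differences were -0.37 (interval -1.41 to 0.67) for Rsad2 and -0.26 (interval -1.08 to 0.57) for Ifit1, and 0.23 and 0.18 without cpdA 3. Of the 4 antiviral genes with the smallest p-values, Mx1, Cmpk2 and Usp18 had that order too. Mx1, a dynamin-like antiviral GTPase, read 22604.0, 15722.2 and 20012.9 with DHA and 22707.1, 22485.2 and 5208.1 with cpdA. Oas2, a sensor of double-stranded RNA, read 3227.9, 2231.5 and 2776.6 with DHA and 3334.0, 3321.6 and 3372.8 with cpdA, so all its cpdA readings were above all its DHA readings, by 0.30 with an interval of -0.39 to 1.00. None of the 39 antiviral genes passed the test. Their median was -0.15 with 4 of 39 positive, and without cpdA 3 it was 0.22 with 39 of 39 positive. Library cpdA 3 was the lowest of the 6 for 37 of the 39, and DHA 2 was the lowest of the other 5 for 39 of the 39. The direction of the list therefore turned on which single library was included. The interferon-inducible GTPases, which attack the vacuoles of intracellular microbes, had 7 of 16 positive and a median of -0.06, and 16 of 16 positive and a median of 0.18 without cpdA 3. None passed the test. Gbp5 of that list read 63984.4, 49893.2 and 61828.2 with DHA and 61691.5, 72396.4 and 22147.3 with cpdA.

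**Figure D4:**
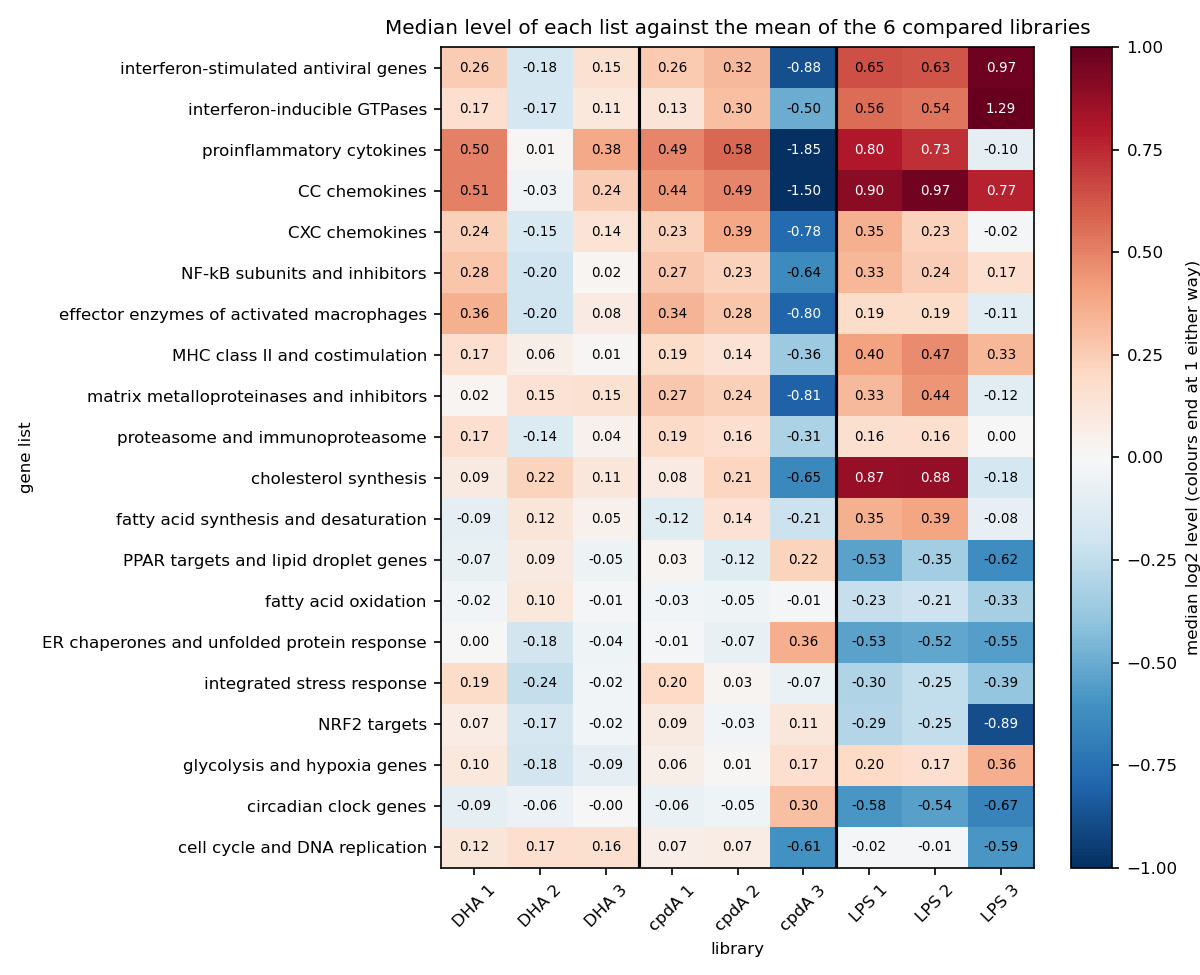
Median log2 level of 20 gene lists (vertical axis) in each of the 9 libraries (horizontal axis), relative to each gene's mean over the 6 compared libraries, with colours ending at 1 either way. In the cytokine and chemokine lists cpdA 3 is the lowest library and DHA 2 the next lowest of the pretreated ones, while DHA 1 and cpdA 1 have nearly equal values in most lists.

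Genes of fatty acid handling, where a fatty acid and a receptor agonist might be set apart, gave narrow differences in most members, with Pparg as an exception. Cpt1a, which admits long-chain fatty acids to mitochondria, read 3711.6, 3178.7 and 3417.6 with DHA and 3706.4, 3664.3 and 3570.2 with cpdA, beside 1532.5, 1503.8 and 1847.9 with LPS alone. All 6 pretreated libraries were above all 3 libraries with LPS alone, and between the pretreatments the difference was 0.09 with an interval of -0.15 to 0.33. Plin2, which coats lipid droplets, read 25067.2, 25358.7 and 24425.5 with DHA and 24827.5, 22258.0 and 39054.7 with cpdA. Its difference of 0.16 (interval -0.36 to 0.67) was -0.09 without cpdA 3. Angptl4, a lipase inhibitor and PPAR target, read 807.0, 534.5 and 540.9 with DHA and 708.9, 778.1 and 882.8 with cpdA, a difference of 0.35 with an interval of -0.09 to 0.79. Pparg, the nuclear receptor that binds fatty acids, had the largest difference of its list, -0.88 with an interval of -2.41 to 0.65, and -1.58 without cpdA 3. Fabp4 and Fabp5 encode fatty acid carriers of the cytosol. Fabp4 read 2229.2, 3354.6 and 2966.9 with DHA and 2146.8, 1960.5 and 2688.3 with cpdA, and Fabp5 had a difference of -0.32 with all cpdA readings below all DHA readings. Hadh, a dehydrogenase of mitochondrial beta-oxidation, read 370.0, 530.0 and 516.4 with DHA and 362.9, 324.7 and 432.8 with cpdA, a difference of -0.33 with an interval of -0.72 to 0.06. In both Fabp4 and Hadh the low DHA library was DHA 1 and the high cpdA library was cpdA 3. Of the 22 genes of fatty acid oxidation 7 were positive, 21 had an interval within 2-fold and none passed the test. Of the 17 PPAR targets and lipid droplet genes 9 were positive with a median of 0.02, and 6 with a median of -0.09 without cpdA 3, and none passed.

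Abca1, the transporter that exports cholesterol and a target of the nuclear receptor LXR, read 6752.2, 8656.6 and 7750.1 with DHA and 6555.8, 9503.1 and 7406.6 with cpdA. The groups overlapped and the difference was 0.01 with an interval of -0.38 to 0.40. Cholesterol synthesis, which SREBP2 drives, had Dhcr7, the reductase of its last step, at 216.2, 648.4 and 424.0 with DHA and 233.8, 250.9 and 382.1 with cpdA. Sc5d, the desaturase just before it, read 2001.8, 2511.2 and 2246.9 with DHA and 1888.6, 2190.9 and 1273.1 with cpdA. DHA 1 lay near cpdA 1 for both, and cpdA 3 was high for Dhcr7 and low for Sc5d. Among its 25 genes 3 were positive and the median was -0.22, and without cpdA 3 there were 17 positive with a median of 0.04. Library cpdA 3 was the lowest of the 6 for 22 of the 25. None of the 25 passed the test, and none of the 16 genes of fatty acid synthesis and desaturation did (4 positive, and 10 without cpdA 3). Scd2, a stearoyl-CoA desaturase, read 1538.1, 2707.4 and 2112.2 with DHA and 1367.0, 1839.1 and 822.1 with cpdA, a difference of -0.70 (interval -1.65 to 0.26) and -0.38 without cpdA 3.

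Among the stress programmes, the ER chaperones and the unfolded protein response were the list whose members all had the same sign. Its 22 genes were all positive, with differences from 0.01 to 0.37 and a median of 0.14, and none passed the test. Without cpdA 3 the median was 0.02 with 15 of 22 positive, and cpdA 3 was the highest of the 6 libraries for 18 of the 22, against 30.2% of all genes. These genes are known for the ER stress response element, searched as CCAAT, any 9 bases and CCACG on one strand, or CGTGG, any 9 bases and ATTGG on the other. In the same promoter windows it occurred in 8 of the 19 members with an entry (42.1%) and in 37 of 27025 genes (0.137%). The 170 bases before the start are shown for the 2 most abundant of those 8, on the same build and with the match in capitals. Hspa5 lies on the plus strand at chr2:34771920-34772089, with its match 65 bases before the start. Calr lies on the minus strand at chr8:84846932-84847101, with its match 162 bases before the start.
Hspa5: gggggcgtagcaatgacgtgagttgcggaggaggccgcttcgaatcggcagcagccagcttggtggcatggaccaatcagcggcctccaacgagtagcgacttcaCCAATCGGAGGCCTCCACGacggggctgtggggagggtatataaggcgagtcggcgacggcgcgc
Calr: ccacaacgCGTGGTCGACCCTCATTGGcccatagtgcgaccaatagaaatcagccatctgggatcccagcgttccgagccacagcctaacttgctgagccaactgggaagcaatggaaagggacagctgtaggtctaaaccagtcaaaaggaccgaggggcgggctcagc

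Hspa5, the ER chaperone BiP, read 52216.6, 38259.7 and 47048.0 with DHA and 50227.3, 46853.7 and 49118.8 with cpdA, beside 29598.8, 28790.4 and 32964.8 with LPS alone. Calr, the lectin chaperone calreticulin, read 26821.6, 23179.1 and 25037.5 with DHA and 26522.5, 24908.1 and 35805.0 with cpdA, beside 18381.2, 18774.1 and 18072.0 with LPS alone. For both genes the 6 pretreated libraries were above the libraries with LPS alone and the DHA and cpdA readings overlapped. Differences were 0.10 (interval -0.25 to 0.45) for Hspa5 and 0.20 (interval -0.16 to 0.56) for Calr, and 0.09 and 0.04 without cpdA 3. Hyou1, an ER chaperone of the HSP70 superfamily and the member with the smallest p-value, read 4893.1, 3921.8 and 4177.7 with DHA and 4927.4, 4271.1 and 8285.8 with cpdA. Its difference of 0.37 (interval -0.12 to 0.86) was 0.09 without cpdA 3. The integrated stress response, led by the factor ATF4, had 19 of 27 genes positive and a median of 0.09, and without cpdA 3 it had 24 positive and a median of 0.16. Trib3, a pseudokinase that ATF4 induces, read 144.9, 124.0 and 141.3 with DHA and 205.3, 133.6 and 232.7 with cpdA, a difference of 0.44 (interval -0.04 to 0.92) and 0.28 without cpdA 3. NRF2 targets, which detoxify oxidants, had 20 of 26 positive and a median of 0.11. Nqo1, the quinone reductase of that list, was scarce at 26.8, 24.8 and 35.6 with DHA and 44.4, 29.5 and 45.3 with cpdA, a difference of 0.43 with an interval of -0.27 to 1.13. No member of these 2 lists passed the test.

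Energy and growth genes were compared in the same way. Glycolysis and hypoxia genes had 20 of 23 positive with a median of 0.12, and 0.11 with 20 positive without cpdA 3. Slc16a3, the exporter of lactate, read 3983.6, 2734.4 and 3028.1 with DHA and 4097.9, 3515.1 and 4758.1 with cpdA, a difference of 0.35 (interval -0.02 to 0.72) and 0.24 without cpdA 3. Egln3, an oxygen-sensing hydroxylase, read 316.5, 290.9 and 293.8 with DHA and 337.5, 360.0 and 718.0 with cpdA, a difference of 0.56 (interval -0.07 to 1.19) and 0.21 without cpdA 3. All its cpdA readings were above all its DHA readings, and cpdA 3 was the highest. The respiratory chain and TCA cycle had 8 of 23 positive with a median of -0.03, and 16 of 23 with a median of 0.03 without cpdA 3. In that list Fh1, the fumarase, had a difference of -0.22 with all cpdA readings below all DHA readings. Cell cycle and DNA replication genes had 2 of 26 positive with a median of -0.27, all 3 cpdA libraries were below all 3 DHA libraries for 7 of the 26, against 2.61% of all genes, and without cpdA 3 there were 8 of 26 positive with a median of -0.05. Rrm1, a subunit of the ribonucleotide reductase that makes DNA precursors, read 526.1, 657.4 and 614.3 with DHA and 517.4, 487.0 and 497.1 with cpdA. Its difference was -0.25 (interval -0.49 to -0.02; limma, adjusted p = 1.00), and -0.25 without cpdA 3 as well. Ccne2, a cyclin of S phase entry, read 44.6, 44.0 and 51.2 with DHA and 27.5, 39.4 and 38.9 with cpdA. Proteasome and immunoproteasome genes had 5 of 17 positive, and 17 of 17 without cpdA 3. Lysosome and autophagy genes had 4 of 24 positive with a median of -0.08. Of 15 circadian clock genes 9 were positive, and Dbp, an output gene of the clock, read 17.8, 111.6 and 80.1 with DHA and 18.0, 21.3 and 47.1 with cpdA. No member of these 6 lists passed the test.

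Genes with the largest differences were taken from those with an unadjusted p under 0.05, groups that did not overlap and at least 50 normalized counts on average on the higher side, and are given as values, since none was called: each had an adjusted p of 1.00 by limma. There were 36 such genes lower and 29 higher with cpdA. Cenpa, the histone variant of centromeres, read 80.3, 131.9 and 105.7 with DHA and 64.5, 65.6 and 37.1 with cpdA, a difference of -0.93 (interval -1.67 to -0.19). F13a1, a coagulation factor subunit made by macrophages, read 182.8, 331.5 and 222.6 with DHA and 153.4, 164.0 and 98.7 with cpdA, a difference of -0.81. P2ry6, a receptor for UDP that macrophages use to sense dying cells, read 474.8, 797.2 and 586.5 with DHA and 468.7, 455.1 and 189.2 with cpdA, a difference of -0.82 and -0.39 without cpdA 3. In F13a1 and P2ry6 the lowest DHA reading was DHA 1, close to cpdA 1. Subunits of condensin, the complex that compacts chromosomes for division, appeared as Ncapg2 (-0.69) and Ncapg (-0.66). The others lower with cpdA were Gm4980 (-0.96), LOC100038947 (-0.65), the integrin subunit gene Itgb5 (-0.63, and -0.35 without cpdA 3), Gmpr (-0.62) and Selenbp1 (-0.61). DHA 1 was the lowest DHA reading for Cenpa, Ncapg2, LOC100038947, Itgb5, Gmpr and Selenbp1 too, but not for Gm4980 or Ncapg. For Itgb5 the groups were barely apart, at 3375 in DHA 1 and 3371 in cpdA 1.

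On the higher side, the kinase gene Wnk2 read 162.7, 129.7 and 115.7 with DHA and 196.8, 163.2 and 426.5 with cpdA, a difference of 0.83 (interval 0.09 to 1.56) and 0.41 without cpdA 3. Slc6a9, which encodes a glycine transporter, read 66.9, 55.3 and 59.0 with DHA and 113.2, 76.3 and 109.6 with cpdA, a difference of 0.70 (interval 0.17 to 1.22) and 0.62 without cpdA 3. Slc6a9 was also lower with LPS alone, at 26.1, 35.7 and 39.9. Rn7s1 and Rn7s2, near-identical copies of the signal recognition particle RNA that can share reads, had differences of 0.77 and 0.71, and 0.48 and 0.41 without cpdA 3, and are therefore uncertain. The others were Frzb, a secreted Wnt antagonist (0.73), Pglyrp2, a peptidoglycan amidase (0.71), the zinc finger gene Sall2 (0.70), the IL-17 receptor subunit gene Il17rc (0.65), Zc3hav1l (0.61) and Atp5s (0.59). In 8 of these 10 the highest reading was cpdA 3.

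Markers of other cells and signs of RNA quality were read beside these lists, and their part in any result was not tested. The summed reading of 6 nuclear and mitochondrial transcripts was 13299 to 21799 in the DHA libraries, 14404 and 17602 in cpdA 1 and cpdA 2, and 53862 in cpdA 3. The nuclear RNA Neat1 made up most of that, at 46513.8 in cpdA 3 against 9342.5 to 15888.0 in the other 5. Pan-macrophage markers summed to 562622 to 584779 with DHA, to 588638 and 585279 in cpdA 1 and cpdA 2, and to 386341 in cpdA 3, where Lyz2 read 269048.5 against 447053.0 to 459825.8 in the other 5. LPS 3 was low as well: these markers summed to 575072, 585247 and 332922 with LPS alone, and Lyz2 read 448027, 459407.3 and 210385.7. Lyz2 made up most of each of these sums, and the other members differed in direction. Of the 8 markers, cpdA 3 was the lowest of the 6 for 5 and the highest for 2, against 35.1% and 30.2% of all genes. Csf1r was highest in cpdA 3, at 21815.9 against 10002.4 to 11559.3 in the other 5, and so was Cd68 at 37490.1. Neat1 read 7382, 12251.8 and 14749.6 with LPS alone. Neutrophil markers (5 genes, 0 positive, median -0.50) summed to 5337 to 6643 with DHA, and to 6395, 6307 and 3596 with cpdA. Only 5 of the 12 markers looked for were found, and Ly6g and S100a9 had no entry under those symbols. Csf3r made up most of each sum, at 3422.6 in cpdA 3 and 4814.9 to 6067.9 in the other 5. Cxcr2 read 86 in cpdA 3 and 69.7 to 95.9 in the other 5. S100a8 read 44.4 in cpdA 3 and 303.3 to 380.6 in the other 5. With LPS alone S100a8 read 247.8, 254.7 and 71.6, so it was low in LPS 3 too, while the neutrophil sums were 7399, 7578 and 8587. B and plasma cell markers (7 genes, 6 positive, median 0.41) summed to 222 to 274 with DHA and 270 to 370 with cpdA. T and NK cell markers (3 genes, 0 positive) summed to 215 to 259 with DHA and 104 to 265 with cpdA. Those 3, of 12 looked for, were Cd4, Cd8a and Lck, and Lck made up most of each sum. Cd3e, Cd3g and the NK cell gene Ncr1 had no entry under those symbols. Cd2, which did not pass the filter and is not among those 3, was at 0 in DHA 1, the shallowest library, and at 16.3 or less elsewhere. Mast cell, basophil and eosinophil markers (5 genes, 3 positive) summed to 224 to 268 with DHA, and to 240, 259 and 436 with cpdA. Monocyte-derived and dendritic cell markers (10 genes, 1 positive, median -0.34, and -0.15 without cpdA 3) summed to 41290 to 49240 with DHA, and to 48709, 47661 and 28463 with cpdA, and 3 of the 10 had all cpdA readings below all DHA readings, against 2.61% of all genes. Mesothelium, fibroblast and endothelium markers (13 genes, 5 positive, median -0.08) summed to 31358 to 33459 with DHA, and to 32556, 35647 and 37511 with cpdA. None of these markers passed the test, and for each of these lists cpdA 3 was at one end of the cpdA readings.

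A set of genes separated DHA 2 and DHA 3 from cpdA 1 and cpdA 2, and it is described with the 3 libraries that were left out to see it. With cpdA 3, LPS 3 and DHA 1 left out, limma called 1215 genes (8.74%), 506 higher with cpdA (3.64%) and 709 lower (5.1%). edgeR called 1171 (8.43%) and DESeq2 987 (7.1%) on the same 6 libraries, and 873 genes were called by all 3 tools. The libraries were left out because of their values, so these calls are no evidence of a difference between the compounds. With LPS 3 kept in the fit and only cpdA 3 and DHA 1 left out, limma called 0 genes (1361 at an unadjusted p under 0.05; smallest adjusted p 0.0629). Of the lists, 12 of 17 NF-kB genes, 18 of 39 antiviral genes, 8 of 21 cytokines and 7 of 17 proteasome genes were called higher in those 6 libraries, and none of these 4 lists had a member called lower. Effector enzymes had 9 of 14 called higher and 1 lower, and CC and CXC chemokines had 5 of 12 and 5 of 11 higher. Other lists went the other way: fatty acid synthesis had 4 of 16 called lower and the circadian clock 4 of 15, with 0 higher in both.

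Cnr2 and Arhgap19, from the 10 largest negative 6-library differences among genes with an average of 50 or more on the higher side, and Pparg, all chosen after their values were seen, show how all libraries lie. Cnr2, the cannabinoid receptor of immune cells, one of 10 lipid-sensing receptors of which none passed the test with all libraries, read 31.2, 416.1 and 211.4 with DHA, 34.9, 32.8 and 226.4 with cpdA, and 31.5, 32.3 and 68.6 with LPS alone. Pparg read 89.2, 471.3 and 263.8 with DHA, 79.4, 68.9 and 320.5 with cpdA, and 75.0, 62.2 and 75.7 with LPS alone. Arhgap19, which encodes a GTPase-activating protein, read 44.6, 901.0 and 435.1 with DHA, 40.2, 43.5 and 227.3 with cpdA, and 32.6, 55.3 and 56.3 with LPS alone. In all 3 genes DHA 2, DHA 3 and cpdA 3 were high, and DHA 1, cpdA 1 and cpdA 2 were near LPS 1 and LPS 2, so the split crossed the labels. Their 6-library differences were -3.10 for Cnr2, -2.24 for Pparg and -3.87 for Arhgap19, and with all libraries -1.12, -0.88 and -1.81. Also lower were Abcd2, a peroxisomal transporter of very long-chain fatty acids (-2.75), the lysophosphatidic acid receptor gene Lpar5 (-2.48) and Deptor, an inhibitor of mTOR (-2.54). On the higher side, with the same lower limit on the average, the difference was 0.92 for Nudt17 and 0.88 for Has1, a hyaluronan synthase. Rgs2, Cd28, Itga6 and Sgsh, among the 11 genes that DESeq2 called without DHA 1, had the same shape within the DHA group, with DHA 1 low: Itga6, an integrin subunit, read 421.3, 851.3 and 730.0 with DHA and 417.9, 422.3 and 470.8 with cpdA.

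The 3 left-out libraries, and LPS 1 and LPS 2, were then placed on a scale for the 1215 genes on which 0 is the mean of DHA 2 and DHA 3 and 1 is the mean of cpdA 1 and cpdA 2. DHA 1 had a median position of 0.99, beside 0.96 over all genes, and was nearer the cpdA end for 1164 genes (95.8%), against 69.8% of all genes. Library cpdA 3 had a median of -0.36, beside -0.35 over all genes, was nearer the cpdA end for 150 genes (12.3%), against 33.8% of all genes, and lay beyond the DHA end for 828 (68.1%), against 57.2% of all genes. LPS 1, LPS 2 and LPS 3 had medians of 1.13, 1.03 and 0.88, beside 1.05, 0.94 and 0.72 over all genes, and LPS 3 lay beyond the DHA end for 20.2% of the 1215. By its median the library labelled DHA 1 thus lay with cpdA 1 and cpdA 2, and the library labelled cpdA 3 past DHA 2 and DHA 3. Both medians were close to those over all genes, so they are not particular to the 1215. The median of cpdA 3 also mixes unlike genes. Its position was 0.13 for Cnr2 and 0.06 for Pparg, near DHA 2 and DHA 3, but -5.06 for Mx1 and -10.5 for Nos2, far outside the scale. What separates these libraries was not tested.

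**Figure D5:**
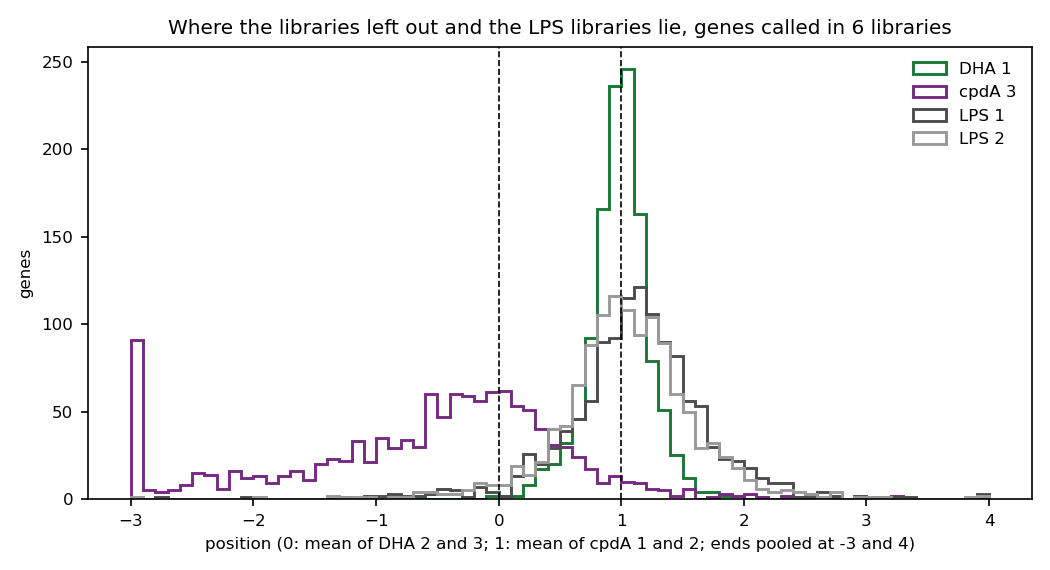
Number of genes (vertical axis) by position on the scale from DHA 2 and 3 (0) to cpdA 1 and 2 (1), for the 1215 genes called in 6 libraries, with 1 outline per library and the ends pooled at -3 and 4. DHA 1 peaks at the cpdA end with a median of 0.99, while cpdA 3 is spread around and beyond the DHA end with a median of -0.36.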

How the data were processed

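RNA was measured in 9 libraries of mouse macrophages, grouped by their titles. Per the submitters' processing notes, base calls came from CASAVA 1.8.2, reads were aligned with Bowtie2 to mm9 and values were normalized with DESeq; how reads were counted, on which annotation and with which strand setting was not stated in the labels or files. The deposited signal is 1 normalized read count per gene and library; the values show that the authors scaled each library's counts by a single factor. Dividing by what 1 read is worth gave whole reads, to within 0.05, for 99.8% to 100% of the values in each library. All p-values and log2 differences were computed here.

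Genes with a value of 10 or more in at least 3 of 9 libraries were kept. The main test was limma 3.58.1 (R 4.3.3) on log2(value + 1), with group means, all 9 libraries, an intensity trend, robust variance and Benjamini-Hochberg adjustment over all kept genes at 0.05; the pseudocount of 1 understates the change of low genes. Alternatives were edgeR 4.0.16 and DESeq2 1.42.0 on the recovered reads, other filters, pseudocounts and scalings, library weights, a replicate block and left-out libraries. The fits were tested on simulated data with the same dispersion for every gene and no outlying library. That test therefore does not measure what the fits could detect with cpdA 3 and LPS 3 as they are. Genes named from the whole table were the 10 largest differences each way with an unadjusted p under 0.05, groups that did not overlap and an average of 50 or more on the higher side. From each list described, up to 4 members with the smallest p were taken. Rsad2, Ifit1, Hspa5 and Calr, for their promoters, and the genes of the 6-library set were chosen after their values were seen. The comparison, the gene lists (639 of 699 entries kept) and the fixed genes were chosen with earlier results of these data known. Promoter sequences and starts are RefSeq's, build GRCm38.p6, and are not on the files' build; no coordinate was taken from one to the other.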

Additional observations from a re-analysis of the deposited data

How the results depend on the processing

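The count of 0 called genes was the same under every scaling, filter, pseudocount, count test, library weighting, replicate block and single left-out library tried with limma, and by edgeR and DESeq2 on all libraries, except in the settings that follow. DESeq2 without DHA 1 called 11 genes. With cpdA 3, LPS 3 and DHA 1 left out, limma called 1215, edgeR 1171 and DESeq2 987; the count tests on fewer libraries and the fit without cpdA 3 and DHA 1 were chosen after seeing the data. The cause was not tested. With library weights limma called 0 genes, 2790 at an unadjusted p under 0.05, and the smallest adjusted p was 0.133.

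Over the alternatives run for single genes, 883 values kept their sign and their side of the threshold and 50 changed sign. With cpdA 3, LPS 3 and DHA 1 left out, 13 of these genes passed the test by limma, 10 with their sign kept and Nos2, Ccl2 and Tnf with it changed. Ncapg2 was also called by DESeq2 without DHA 1. Medians of gene lists moved by less than the spread between libraries in 1011 cases and by more in 40. That spread was taken within the DHA and cpdA groups with cpdA 3 included, which widens it. A median could therefore change sign and still count as moving by less, so these counts do not show that the lists were stable. Without cpdA 3 the median turned from -0.58 to 0.21 for the cytokines and from -0.15 to 0.22 for the antiviral genes.

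Signs of single genes turned as follows. Without cpdA 3 and LPS 3 the log2 difference was 0.17 for Il6, 0.20 for Il1b, 0.32 for Nos2, 0.16 for Ptgs2, 0.24 for Il12b, 0.25 for Ccl2, 0.24 for Tnf and -0.0858 for Plin2. Without cpdA 3 and DHA 1, and with LPS 3 also left out, it was 0.19, 0.32, 0.39, 0.23, 0.32, 0.33, 0.41 and -0.0823 in the same order, and -0.0534 for Abca1. With library weights it was 0.14 for Nos2, 0.0759 for Il12b, 0.14 for Ccl2, 0.20 for Tnf, -0.0257 for Abca1, -0.19 for Il10 and -0.0204 for Plin2. Il10 was -0.019 by edgeR and -0.36 without DHA 1 and cpdA 1. Over the settings that left out 1 library each, the range was -1.98 to 0.32 for Nos2, -1.33 to 0.24 for Il12b, -0.67 to 0.25 for Ccl2, -0.59 to 0.24 for Tnf, -0.14 to 0.13 for Abca1, -0.30 to 0.44 for Il10, -0.0858 to 0.32 for Plin2, -0.0613 to 0.16 for Il1rn, -3.15 to 0.17 for Il6, -2.28 to 0.20 for Il1b and -1.75 to 0.16 for Ptgs2.

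Equal replicate numbers were not treated as pairs in the main test, and the labels do not say whether they are. Deviations from the group means correlated at 0.41, -0.35 and 0.01 between DHA and cpdA libraries numbered 1, 2 and 3. With 3 libraries a group, and cpdA 3 far from the other cpdA libraries, these values cannot decide whether the samples were paired. With the replicate block limma called 0 genes, 231 at an unadjusted p under 0.05. With 3 libraries a group, and DHA 1 the shallowest library, small differences in scarce genes were not detectable.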
